A study of Pan troglodytes with 8 samples.

Results

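Cadherins outside the clustered protocadherin arrays are described here across 4 cell populations sorted from chimpanzee (Pan troglodytes) cerebral organoids. Members were chosen by gene symbol alone: the numbered CDH and PCDH genes, CDHR1 to CDHR5, FAT1 to FAT4, DCHS1, DCHS2, CELSR1 to CELSR3 and the desmosomal DSC and DSG genes. The rule found 57 of the 60583 named genes in the table counted on the chimpanzee genome. All organoids came from a single induced pluripotent stem cell line, SandraA, and were collected at week 8 of culture, give or take 3 days. The populations were neurons positive for BCL11B (N), basal intermediate progenitors (bIP), basal radial glia (bRG) and apical radial glia (aRG), each with 2 bulk RNA libraries made from 10000 sorted cells. They were separated by fluorescence-activated sorting, of which BCL11B is the only marker named in the labels, and no genetic change or drug sets them apart. Whether replicates are different cultures is unstated, so every p-value rests on a spread that could be technical.

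Cadherins are membrane proteins whose extracellular repeats bind calcium and, in most of them, the same protein on a neighbouring cell. Classical cadherins tie through catenins to actin at the adherens junctions that hold apical radial glia at the ventricular surface. Nonclustered protocadherins, whose adhesion is weaker, are known for axon growth and sorting, while the giant FAT, Dachsous and CELSR proteins are known for tissue polarity and for the orientation of cells and axons.

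Library totals on the chimpanzee genome ranged from 24649971 to 33245892 counts. Summed levels of the marker genes followed the labels. Here and below a level is in CPM, a count relative to the library total with trimmed mean of M values (TMM) scaling. The 7 radial glia markers summed to 80.8 and 160 CPM in N, 493 and 541 in bIP, 1980 and 2140 in bRG, and 3060 and 3270 in aRG. The 8 neuronal markers summed to 4840 and 5380 CPM in N, 2720 and 3310 in bIP, 783 and 1470 in bRG, and 546 and 781 in aRG. Not all of them separated N from bIP. RBFOX3, SLC17A6 and MAP2 had higher means in bIP (200, 72.8 and 1120 CPM) than in N (137, 59.7 and 980). BCL11B, TBR1, NEUROD6, SNAP25 and SYT4 had higher means in N, and of these SYT4 alone passed against bIP in the edgeR test described below. Intermediate progenitor markers (7 genes) reached 3070 and 3670 CPM in bIP and at most 869 in any other library. Choroid plexus markers stood apart in aRG, where the 8 genes summed to 974 and 3310 CPM, and mesenchymal markers in aRG replicate 2, where 8 genes summed to 2030 CPM against 401 in aRG replicate 1.

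Of the 57 cadherins 54 had enough counts to be tested, and 3 did not. PCDH20 had at most 5 counts in a library, and the X-linked PCDH11X at most 11. PCDH11Y, a near-identical copy of PCDH11X in human, had at most 2. It was the symbol with no match among the chimpanzee genes used for overlapping loci. Reads counted under it could come from PCDH11X, which was not tested. Mean levels in the highest population lay between 1.17 and 643 CPM among the tested cadherins, and 25 of them reached at least 20 CPM. The highest mean stood in N for 23 of the 54, in bIP for 7, in bRG for 7 and in aRG for 17. The matching distribution over all tested genes was not counted. Since samples are bulk, fewer cells of a type and less RNA per cell cannot be told apart in any of these levels. Levels of different genes are not compared, because no transcript lengths were used. Populations are said not to overlap where both libraries of the first lay on the same side of both libraries of the second. With 2 libraries each this is common, from 31.6% of all tested genes (bRG against aRG) to 49.2% (N against aRG). The shares of the 54 cadherins were 37.0% and 72.2%.

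**Figure D1:**
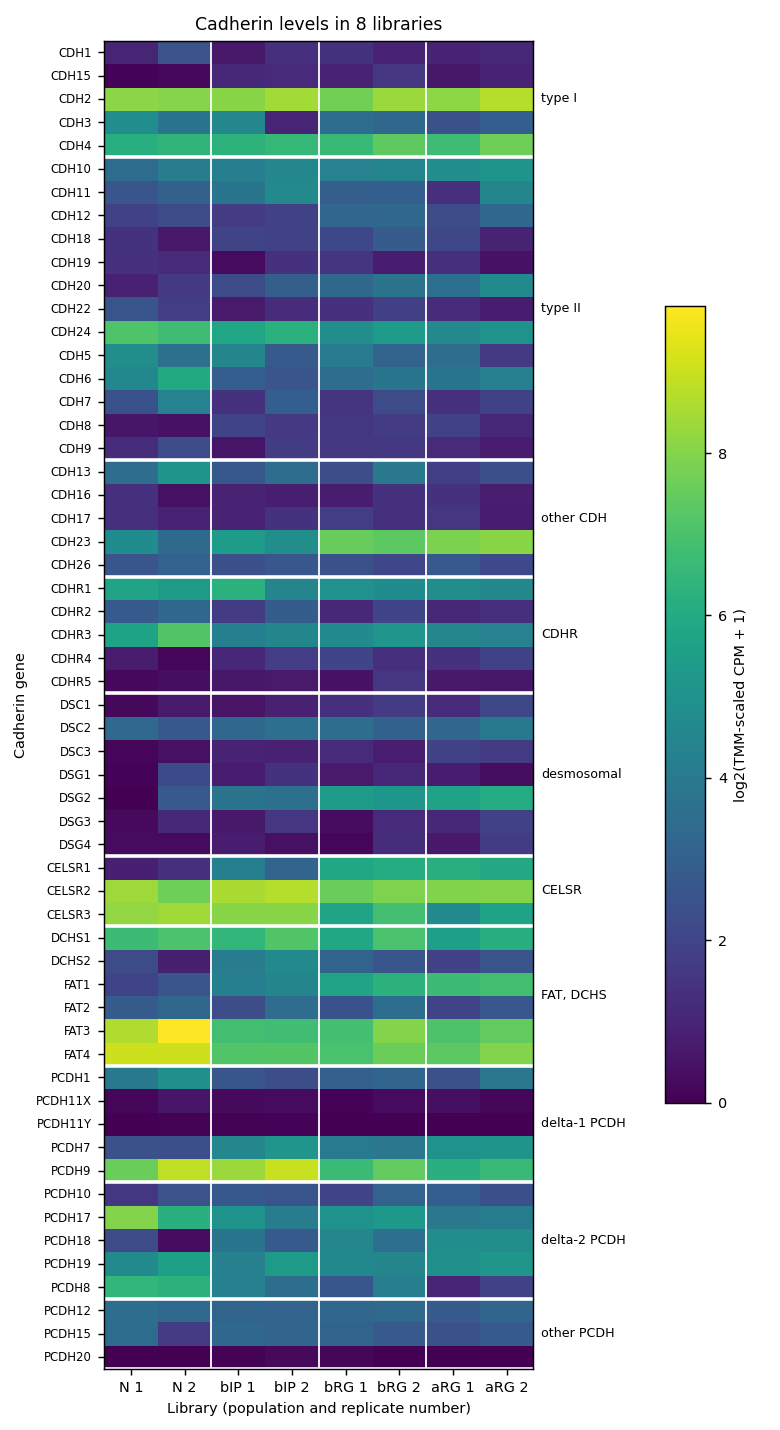
Levels of all 57 cadherins (rows, grouped by role) in the 8 libraries (columns), as log2 of TMM-scaled CPM plus 1. FAT1, CELSR1, CDH23 and DSG2 are bright in the radial glia columns on the right, and FAT3, FAT4, CELSR3, CDH24, PCDH8 and PCDH17 are brightest in the neuron columns on the left.

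FAT1, CELSR1 and CDH23 were lower in neurons than in radial glia, while FAT3, FAT4, CELSR3, CDH24, PCDH8 and PCDH17 were higher. Between N and aRG 16 of the 54 tested cadherins passed the threshold of 0.05 for p adjusted by the Benjamini-Hochberg method over all genes (edgeR quasi-likelihood test, 8 libraries), where 9.67% of all 35382 tested genes did. Among them 9 rose in neurons (CDH13, CDH24, CDHR3, CELSR3, FAT3, FAT4, PCDH8, PCDH9 and PCDH17) and 7 fell (CDH20, CDH23, CELSR1, DSG2, FAT1, PCDH7 and PCDH18), against 4.87% of all genes higher and 4.80% lower. The share was 29.6% of the tested cadherins. When genes needed at least 5 CPM in 2 libraries, 17 of 38 cadherins (44.7%) and 24.4% of all genes passed. The median log2 fold change was 0.10 over the cadherins and −0.08 over all genes tested.

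The other comparisons gave smaller numbers. Between N and bRG 13 cadherins passed (24.1%, against 6.00% of all genes), 8 higher and 5 lower in N (2.61% and 3.39% of all genes). Between N and bIP 10 passed (18.5%, against 2.53%), 6 higher and 4 lower in N (1.05% and 1.48% of all genes). Between bIP and aRG 6 passed (11.1%, against 2.83%), with CELSR3, PCDH8 and PCDH9 higher and CDH23, CELSR1 and FAT1 lower in bIP (1.34% and 1.50% of all genes). Between bIP and bRG 3 passed (5.56%, against 1.03%), and these were CDH23, CELSR1 and FAT1, all lower in bIP (0.574% of all genes). With at least 5 CPM required, 36.8%, 26.3%, 18.4% and 7.89% of 38 cadherins passed in the same order, against 15.2%, 6.85%, 8.36% and 3.08% of all genes. These comparisons share libraries, so their lists are not independent of each other.

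Between bRG and aRG no cadherin passed with edgeR, where 0.00283% of all genes did (1 gene). At an unadjusted p under 0.05 there were 5 cadherins, namely CELSR3, PCDH8 and PCDH17 with higher and FAT1 and PCDH7 with lower values in bRG, and 1318 of all genes (3.73%). DESeq2 called 1 cadherin, PCDH8, and edgeR with no low-count filter called the same gene. These counts stand without the share of all genes under the same setting, and are not read as a result about cadherins. PCDH8 had 5.21 and 17.1 CPM in bRG, against 1.02 and 2.80 in aRG, so the groups did not overlap but the bRG libraries differed more than 3-fold (log2 fold change 2.53, SE 0.59, adjusted p = 0.612 with edgeR, 0.00497 with DESeq2, and 0.00989 with edgeR without bRG replicate 1). In a single test of any difference among the 4 populations 15 cadherins passed (27.8%, against 7.62% of all genes), and 15 of 38 (39.5%, against 19.1%) with at least 5 CPM required. CDH13, DSG2 and PCDH18 passed between N and aRG but did not pass in this single test with edgeR. That outcome changed with the settings. With no low-count filter they all passed in it (adjusted p = 0.00016, 3.42e-25 and 3.46e-11, edgeR). With DESeq2 CDH13 (0.0083) and PCDH18 (0.000463) passed. On the human genome DSG2 (0.0305) and PCDH18 (0.0498) passed with edgeR, and CDH13 did not (0.0951). In all, 18 cadherins passed in at least 1 of the 6 comparisons, and the matching share of all genes was not counted. All 48 such differences had the same sign within replicate number 1 and within replicate number 2. They were picked for passing on these same libraries, so this agreement is no separate support.

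**Figure D2:**
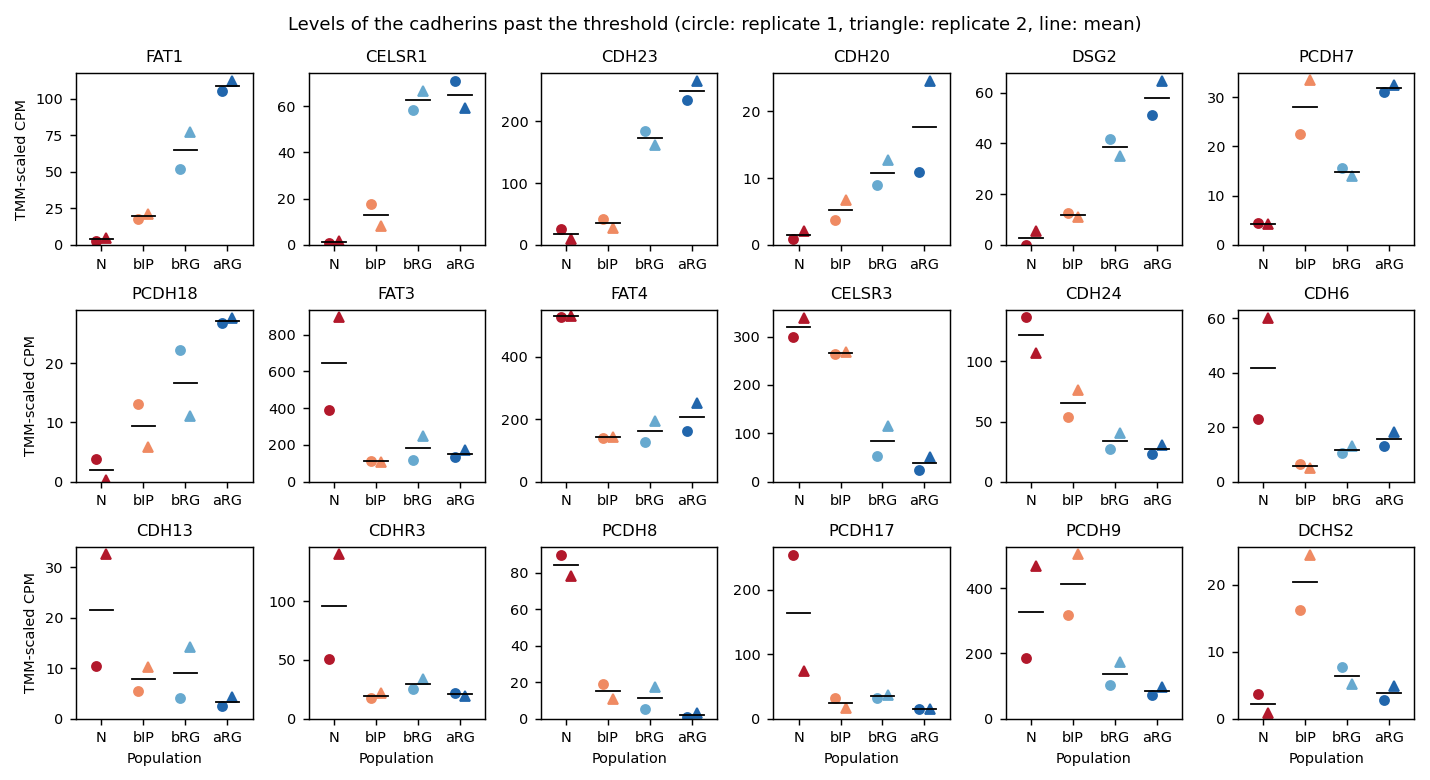
TMM-scaled CPM (vertical axes, from 0) of the 18 cadherins past the threshold in at least 1 comparison, by population, with circles for replicate 1, triangles for replicate 2 and a line at the mean of 2 libraries. FAT1, CDH23 and DSG2 step down from right to left, CELSR1 is low in bIP and N, FAT3, FAT4, CDH6 and CDHR3 are high in N alone, and DCHS2 is highest in bIP.

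Among the classical cadherins of type I, whose adhesive N-terminal repeat defines the best known family members, none of 5 passed in any comparison with edgeR. Of 30 tests 6 had an unadjusted p under 0.05, all of CDH4 or CDH15, and DESeq2 called 2, CDH4 in N against aRG and CDH15 in N against bRG. CDH2 is N-cadherin, the main adherens junction cadherin of neural tissue. It had 275 and 258 CPM in N, 264 and 346 in bIP, 210 and 324 in bRG, and 283 and 424 in aRG. The N libraries lay below both aRG libraries and the other pairs of populations overlapped, and the test among the 4 gave an adjusted p of 0.801 with edgeR. CDH4 is R-cadherin, known from the retina and forebrain. Its levels were 70.2 and 83.5 CPM in N, 79.1 and 90.5 in bIP, 96.2 and 166 in bRG, and 106 and 200 in aRG (adjusted p = 0.226 among populations, edgeR, but 0.0144 with no low-count filter and 0.0499 without aRG replicate 1). The radial glia libraries were all above those of N and bIP. CDH1, the epithelial E-cadherin, stayed between 0.582 and 4.65 CPM in all 8 libraries, and the muscle cadherin CDH15 at or under 1.95 CPM. CDH3, or P-cadherin, had its highest mean in N (19.8 ± 10.0 CPM, SD, n = 2) and ranged from 1.02 to 22.5 CPM between the bIP libraries.

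Cadherins of type II, which differ from type I in the adhesive interface and mark subsets of neurons, went in both directions. CDH24 had 137 and 107 CPM in N, 54.2 and 75.9 in bIP, 27.5 and 40.5 in bRG, and 23.3 and 30.8 in aRG. Its neuron libraries were the highest and its bIP libraries intermediate, with bRG and aRG overlapping (log2 fold change of N against aRG 2.17, SE 0.32, adjusted p = 0.000861, and against bRG 1.84, adjusted p = 0.00450, edgeR). CDH6 had 23.1 and 60.3 CPM in N, 6.59 and 5.07 in bIP, 10.4 and 13.1 in bRG, and 13.0 and 18.3 in aRG. Neurons were again highest, although replicate 2 was more than 2-fold above replicate 1. CDH6 rose in N against bIP (2.84, SE 0.48, adjusted p = 0.00871) and against bRG (1.83, SE 0.46, adjusted p = 0.0367). Without N replicate 2 neither passed (adjusted p = 0.0654 and 0.409), nor did that against bIP without bIP replicate 2 (0.0597) or that against bRG without either bRG library (0.202 and 0.0726). CDH20 ran the other way, with 0.850 and 2.15 CPM in N, 3.80 and 6.76 in bIP, 8.97 and 12.7 in bRG, and 10.9 and 24.5 in aRG. Neurons were lowest and aRG replicate 2 stood above the rest (N against aRG −3.56, SE 0.64, adjusted p = 0.00316, and against bRG −2.85, SE 0.62, adjusted p = 0.0170). The difference from bRG did not pass without N replicate 1 (adjusted p = 0.0828).

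CDH10, whose levels were 9.92 and 16.6 CPM in N, 17.2 and 22.5 in bIP, 19.6 and 20.6 in bRG, and 26.9 and 33.1 in aRG, did not pass (adjusted p = 0.266 among populations, edgeR), though the aRG libraries were the highest. The other 9 members of type II had means of 1.46 to 19.6 CPM in their highest population, and none passed. CDH5, the vascular VE-cadherin, was highest in N at 19.6 ± 11.9 CPM (SD, n = 2), where 7 endothelial markers summed to 26.8 and 29.5 CPM, against 30.0 and 46.0 in aRG. In every population CDH5 was higher in the library numbered 1. CDH11, a cadherin of mesenchyme and of neurons, had its highest mean in bIP, at 12.9 and 23.2 CPM. Mesenchymal markers summed to 136 and 151 CPM there. CDH11 had 6.90 and 6.55 CPM in bRG, where these markers summed to 294 and 354 CPM. In N it had 5.06 and 7.20 CPM, with marker sums of 41.7 and 18.6 CPM. It differed within aRG, at 1.53 CPM in the first library and 21.1 in the second, the library with the highest mesenchymal marker sum (2030 CPM). The part of mesenchymal cells in these values was not tested.

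Of the CDH genes that are neither type I nor type II, CDH23 showed the clearest steps. It is a long cadherin known from the tip links of inner ear hair cells. Its levels were 26.4 and 9.14 CPM in N, 42.1 and 27.7 in bIP, 185 and 162 in bRG, and 234 and 265 in aRG. No 2 neighbouring populations overlapped. CDH23 fell in N against aRG (−3.81, SE 0.45, adjusted p = 0.000186) and against bRG (−3.29, SE 0.44, adjusted p = 0.000905), and in bIP against aRG (−2.84, SE 0.43, adjusted p = 0.00369) and against bRG (−2.31, SE 0.42, adjusted p = 0.0227, all edgeR), the last not without bIP replicate 2 (0.157). The locus overlaps VSIR, an immune checkpoint gene, which had 0.345 to 0.825 CPM in N and bIP and 2.10 to 5.15 in bRG and aRG. Its hair cell partner PCDH15 did not pass and had 2.28 to 9.96 CPM across libraries. CDH13 encodes T-cadherin, which lacks a cytoplasmic tail and is anchored by a lipid. Its levels were 10.5 and 32.5 CPM in N, 5.51 and 10.3 in bIP, 4.08 and 14.1 in bRG, and 2.51 and 4.21 in aRG. Neurons exceeded aRG (2.67, SE 0.70, adjusted p = 0.0309, edgeR), a call lost without N replicate 2 (adjusted p = 0.260) or without either aRG library (0.166 and 0.0589). CDH16, CDH17 and CDH26 had highest means of 1.21, 1.95 and 6.28 CPM.

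Of the 5 cadherin-related genes 1 passed. CDHR3, a receptor for rhinovirus C in airway epithelium, had 50.7 and 140 CPM in N, 17.8 and 21.4 in bIP, 25.5 and 33.9 in bRG, and 22.0 and 19.5 in aRG. Both neuron libraries lay above the other 6, and they differed from each other nearly 3-fold. It rose in N against aRG (2.21, SE 0.42, adjusted p = 0.00516), bIP (2.29, SE 0.43, adjusted p = 0.0140) and bRG (1.69, SE 0.42, adjusted p = 0.0329, edgeR). None of these passed without N replicate 2 (adjusted p = 0.0623, 0.116 and 0.408). Leaving out either bIP library (0.0592 and 0.0539) or bRG replicate 1 (0.169) also ended the call against that population. CDHR1, known from photoreceptors, had 51.8 and 39.3 CPM in N, 75.7 and 21.3 in bIP, 30.5 and 26.1 in bRG, and 27.6 and 22.9 in aRG (adjusted p = 0.500 among populations, and 0.0389 without bIP replicate 2). Its bIP libraries were the highest and the lowest of all 8. CDHR2, an intestinal brush border protein, reached 7.33 ± 2.07 CPM in N (SD, n = 2) and did not pass. Its locus overlaps GPRIN1, a neuronal gene at 104 and 80.0 CPM in N and 5.81 and 7.42 in aRG, and reads of the 2 genes could not be separated by strand. CDHR4 and CDHR5 stayed at or under 3.14 CPM in every library.

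Of the desmosomal cadherins, which build the spot junctions of epithelia and heart, 1 passed, DSG2. Its counts in N were 0 and 132, which correspond to 0 and 5.69 CPM, and 3 counts would be 0.116 CPM in the library at 0. In bIP it had 12.7 and 11.2 CPM, in bRG 41.6 and 35.2, and in aRG 51.1 and 64.4. The populations formed a staircase with no overlap. Between neighbours 45.1% (N and bIP), 39.5% (bIP and bRG) and 31.6% (bRG and aRG) of all tested genes did not overlap. DSG2 fell in N against aRG (−4.35, SE 1.09, adjusted p = 0.0242, edgeR). It did not pass with DESeq2 (adjusted p = 0.107) or with only N and aRG fitted (0.0886, edgeR). The difference against bRG did not pass (adjusted p = 0.0609, and 0.0235 on the human genome). The fitted fold depends on the library at 0. In 6 of the 7 desmosomal genes the highest mean was in aRG, the exception being DSG1. The share of all genes highest in aRG was not counted. Apart from DSG2 and DSC2, at 11.5 ± 4.39 CPM in aRG, every desmosomal cadherin stayed at or under 3.58 CPM in all libraries. Markers of epithelia outside the brain (8 genes) summed to 5.52 and 8.34 CPM in N, 7.02 and 11.9 in bIP, 10.0 and 12.1 in bRG, and 19.2 and 39.0 in aRG. Their part in the DSG2 values was not tested.

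The 3 CELSR genes encode receptors of planar polarity that pair cadherin repeats with an adhesion receptor core. CELSR1 marked radial glia, with 0.811 and 1.59 CPM in N, 17.6 and 8.09 in bIP, 58.4 and 66.5 in bRG, and 70.7 and 59.1 in aRG. Neurons were near 0 in these chimpanzee genome counts, bIP were in between, and the bRG and aRG libraries overlapped. From counts on the human genome CELSR1 had 11.4 and 19.8 CPM in N. The log2 fold change of N was −5.76 against aRG (SE 0.50, adjusted p = 2.21e-05), −5.70 against bRG (SE 0.49, adjusted p = 3.51e-05) and −3.42 against bIP (SE 0.46, adjusted p = 0.00208), and that of bIP was −2.34 against aRG (SE 0.41, adjusted p = 0.00902, all edgeR). Without bIP replicate 2 the differences of bIP from aRG and from bRG (−2.28, SE 0.41, adjusted p = 0.0227) did not pass (0.0568 and 0.139).

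CELSR3, known for guiding axon tracts of the forebrain, was high in N and bIP. It had 300 and 339 CPM in N, 263 and 267 in bIP, 52.2 and 115 in bRG, and 25.2 and 50.8 in aRG. Both libraries of N and of bIP exceeded every radial glia library. CELSR3 rose against aRG in N (3.07, SE 0.41, adjusted p = 0.000451) and in bIP (2.80, SE 0.41, adjusted p = 0.00302), and against bRG in N (1.94, SE 0.39, adjusted p = 0.0117, edgeR), the last not without bRG replicate 1 (0.0677). CELSR2 differed less, with 332 and 197 CPM in N, 375 and 415 in bIP, 196 and 242 in bRG, and 246 and 253 in aRG (adjusted p = 0.249 among populations). As a share of reads over the 3 genes, CELSR1 made up 0.212% ± 0.119 in N, 1.93% ± 1.07 in bIP, 17.4% ± 2.33 in bRG and 18.5% ± 3.14 in aRG, and CELSR3 55.2% ± 11.1, 39.4% ± 0.991, 22.1% ± 7.15 and 10.7% ± 4.68 in the same order (SD, n = 2). CELSR1 had fewer counts on the chimpanzee than on the human genome, and from counts on the human genome its share was 2.43% ± 1.09 in N, 10.8% ± 1.97 in bIP, 46.4% ± 7.35 in bRG and 49.8% ± 1.86 in aRG, with CELSR3 at 56.6% ± 10.2, 38.3% ± 0.209, 15.7% ± 6.36 and 7.22% ± 2.98. These shares depend on gene length and compare libraries, not genes.

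**Figure D3:**
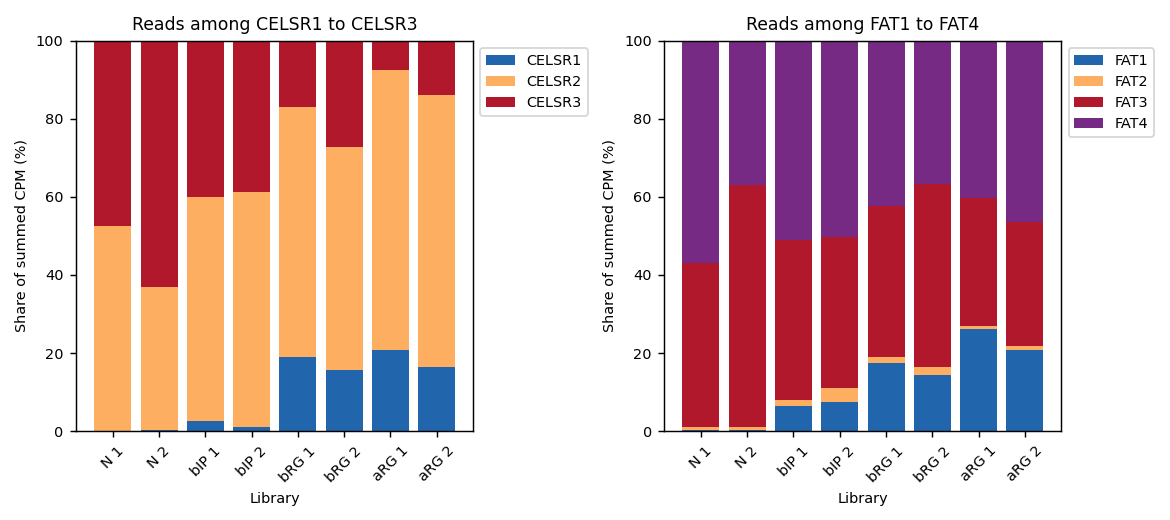
Share (%) of summed TMM-scaled CPM held by each gene among CELSR1 to CELSR3 (left) and FAT1 to FAT4 (right) in each library, as stacked bars. Values are from the chimpanzee genome, where the blue segments of CELSR1 and FAT1 are under 1% in both N libraries and 14.4% or more in all radial glia libraries. From counts on the human genome CELSR1 holds 1.66% and 3.21% in N and 41.2% or more in radial glia.

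FAT cadherins, giant relatives of the Drosophila tumour suppressor Fat, also moved in opposite directions. FAT1, which acts on actin and on Hippo signalling, had 2.97 and 5.04 CPM in N, 18.0 and 21.1 in bIP, 52.2 and 77.2 in bRG, and 105 and 112 in aRG. The 4 populations did not overlap. FAT1 fell in N against aRG (−4.76, SE 0.37, adjusted p = 1.06e-05), bRG (−4.01, SE 0.36, adjusted p = 4.65e-05) and bIP (−2.29, SE 0.34, adjusted p = 0.00413). The difference of N from bIP did not pass with only these 2 populations fitted (adjusted p = 0.0551, edgeR). In bIP FAT1 fell against aRG (−2.47, SE 0.33, adjusted p = 0.00195) and bRG (−1.73, SE 0.32, adjusted p = 0.0266, edgeR). The difference of bIP from bRG did not pass without either bIP library or bRG replicate 2 (adjusted p = 0.148, 0.123 and 0.109).

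FAT3, known from the retina for neurite and dendrite placement, had 392 and 894 CPM in N, 113 and 110 in bIP, 116 and 250 in bRG, and 132 and 173 in aRG. FAT4, which binds Dachsous and is known for progenitor and neuron positioning, had 529 and 530 CPM in N, 141 and 144 in bIP, 127 and 196 in bRG, and 162 and 253 in aRG. For both genes the neuron libraries were above the other 6. FAT3 rose in N against aRG (2.08, SE 0.42, adjusted p = 0.00672), bRG (1.81, SE 0.41, adjusted p = 0.0222) and bIP (2.53, SE 0.42, adjusted p = 0.00807). FAT4 rose against aRG by 1.35 (SE 0.29, adjusted p = 0.0101), bRG by 1.71 (SE 0.29, adjusted p = 0.00447) and bIP by 1.90 (SE 0.30, adjusted p = 0.00548, edgeR). Without aRG replicate 1 FAT4 did not pass against aRG (adjusted p = 0.124), and without N replicate 2 or bRG replicate 1 FAT3 did not pass against bRG (0.175 and 0.127). FAT1 held 0.335% ± 0.0222 of the reads over FAT1 to FAT4 in N, 6.96% ± 0.598 in bIP, 15.9% ± 2.11 in bRG and 23.4% ± 3.82 in aRG (SD, n = 2). FAT2 stayed between 2.91 and 10.8 CPM and did not pass.

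Of the Dachsous cadherins, the binding partners of FAT4, DCHS2 passed in 1 comparison and DCHS1 in none. DCHS2 had its highest mean in bIP, with 3.67 and 0.819 CPM in N, 16.3 and 24.5 in bIP, 7.64 and 5.22 in bRG, and 2.79 and 4.86 in aRG. Both bIP libraries were above the other 6. The difference passed in N against bIP (−3.18, SE 0.68, adjusted p = 0.0290, edgeR), though not without N replicate 2 or without bIP replicate 2 (adjusted p = 0.104 and 0.123). DCHS1 had 105 and 130 CPM in N, 89.2 and 142 in bIP, 58.3 and 125 in bRG, and 45.4 and 68.5 in aRG (adjusted p = 0.328 among populations). In each population other than aRG at least 1 DCHS1 library exceeded 120 CPM.

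Delta protocadherins carry conserved cytoplasmic motifs and are divided into delta-1 and delta-2. Among delta-1 genes PCDH9 was high in bIP and N, with 186 and 470 CPM in N, 319 and 506 in bIP, 102 and 173 in bRG, and 73.0 and 97.1 in aRG. Replicate 2 exceeded replicate 1 in every population. PCDH9 rose against aRG in bIP (2.28, SE 0.43, adjusted p = 0.0132) and in N (1.95, SE 0.43, adjusted p = 0.0110, edgeR). Without replicate 2 of its own population neither passed (adjusted p = 0.0564 in bIP and 0.103 in N), nor without aRG replicate 1 (0.0695 and 0.0725). PCDH7 had 4.40 and 4.27 CPM in N, 22.5 and 33.4 in bIP, 15.7 and 14.0 in bRG, and 31.1 and 32.5 in aRG. Neurons were lowest and bRG lay between. It fell in N against aRG (−2.87, SE 0.37, adjusted p = 0.000324), bIP (−2.69, SE 0.36, adjusted p = 0.00225) and bRG (−1.78, SE 0.35, adjusted p = 0.0104, and 0.0534 without N replicate 2). PCDH1, at 14.8 and 29.0 CPM in N, 5.16 and 4.12 in bIP, 6.99 and 8.09 in bRG, and 4.40 and 13.8 in aRG, did not pass (adjusted p = 0.0897 among populations, but 0.00480 with DESeq2, 0.00131 with no low-count filter, and 0.0326 or 0.0190 without either aRG library), although both neuron libraries were highest.

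Among delta-2 genes PCDH8 had the largest fold change of the 54 cadherins between N and aRG in the upward direction. This activity-regulated protocadherin of synapses is also called arcadlin, and it had 89.7 and 78.2 CPM in N, 18.9 and 10.8 in bIP, 5.21 and 17.1 in bRG, and 1.02 and 2.80 in aRG. Neurons stood above all others and aRG below, with bIP and bRG overlapping. It rose in N against aRG (5.44, SE 0.66, adjusted p = 0.000222), bRG (2.91, SE 0.58, adjusted p = 0.0103) and bIP (2.50, SE 0.57, adjusted p = 0.0389), and in bIP against aRG (2.94, SE 0.59, adjusted p = 0.0190, edgeR). The difference of N from bIP did not pass without either N library or bIP replicate 2 (0.0614, 0.0626 and 0.208), nor that of bIP from aRG without bIP replicate 1 or aRG replicate 1 (0.0568 and 0.0866). PCDH17, known from axons and presynapses of basal ganglia circuits, had 255 and 73.9 CPM in N, 31.3 and 16.7 in bIP, 31.8 and 36.8 in bRG, and 14.1 and 15.1 in aRG. Both neuron libraries were highest, yet replicate 1 was more than 3-fold above replicate 2. PCDH17 rose in N against aRG (3.50, SE 0.52, adjusted p = 0.000878), bIP (2.78, SE 0.50, adjusted p = 0.0121) and bRG (2.26, SE 0.49, adjusted p = 0.0167). It did not pass against bRG without N replicate 1 (adjusted p = 0.175) or against bIP without bIP replicate 2 (0.0778).

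PCDH18 fell in N. It had 3.82 and 0.259 CPM in N, 13.1 and 5.85 in bIP, 22.2 and 11.1 in bRG, and 26.7 and 27.6 in aRG. Its libraries descended from aRG through bRG to bIP and N, with bRG and bIP overlapping (N against aRG −3.72, SE 0.87, adjusted p = 0.0165, edgeR, and against bRG adjusted p = 0.0590, or 0.0350 on the human genome). PCDH19, an X-linked gene whose loss is known to cause epilepsy in human, had 25.0 and 45.5 CPM in N, 18.2 and 39.4 in bIP, 22.6 and 21.3 in bRG, and 29.7 and 35.2 in aRG (adjusted p = 0.764 among populations). All populations overlapped with at least 1 other. PCDH10 stayed between 2.01 and 7.58 CPM and PCDH12 between 6.13 and 10.6.

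**Figure D4:**
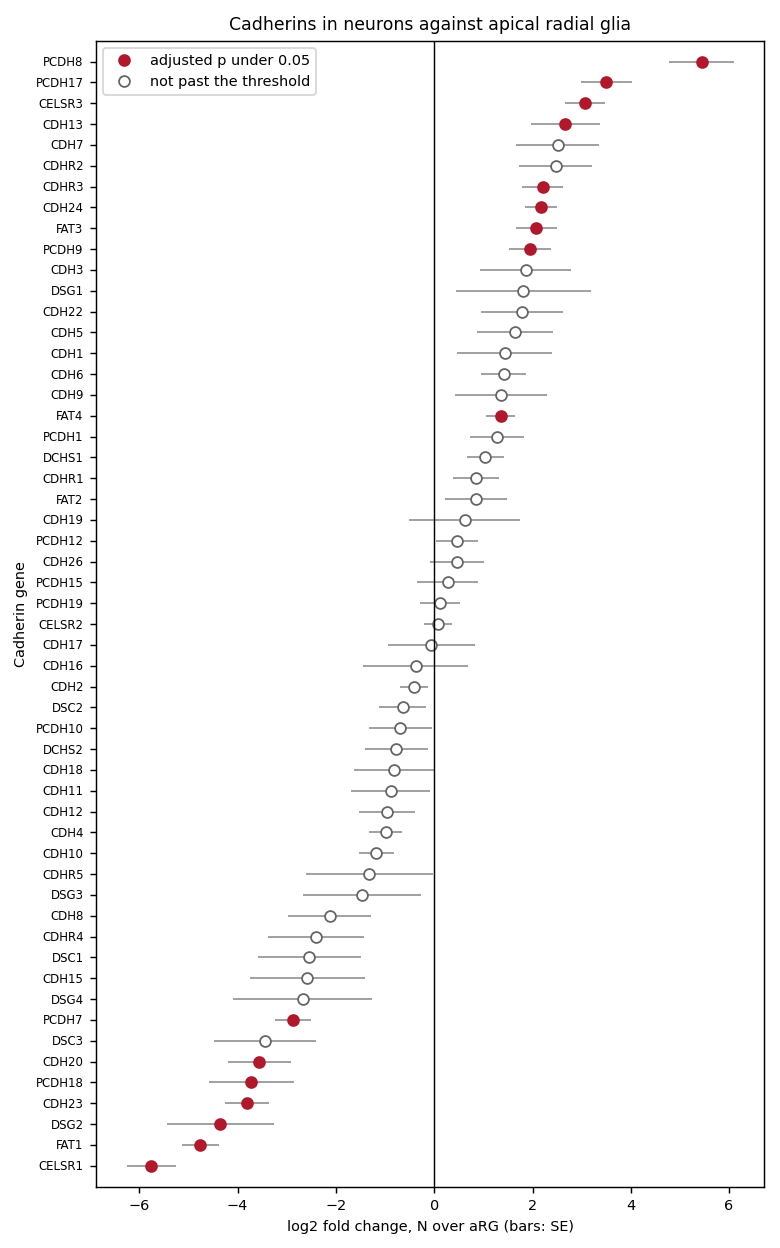
Log2 fold change of N over aRG with its SE for the 54 tested cadherins, ordered by size, with filled points for adjusted p under 0.05. PCDH8 is at the top (5.44) and CELSR1 at the bottom (−5.76), while CDH2 (−0.41) and CELSR2 (0.08) did not pass. Values are from the chimpanzee genome. From counts on the human genome CELSR1 is at −4.28, above FAT1 at −4.75.

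Markers of other cell types moved with the comparison of N and aRG. Of 8 choroid plexus markers 6 were lower in N than in aRG (CLIC6, FOLR1, HTR2C, OTX2, TRPM3 and TTR), against 4.80% of all genes. The markers summed to 35.2 and 64.8 CPM in N, 74.1 and 77.5 in bIP, 79.0 and 79.9 in bRG, and 974 and 3310 in aRG. None was at 0 in all libraries. Of 8 mesenchymal markers 7 were lower in N than in aRG (4.80% of all genes) and 5 lower than in bRG (3.39% of all genes). Their sums were 18.6 and 41.7 CPM in N, 136 and 151 in bIP, 294 and 354 in bRG, and 401 and 2030 in aRG. Of the 7 cadherins that fell in N against aRG, CDH20, CDH23, CELSR1, FAT1 and PCDH7 also passed against bRG, and DSG2 and PCDH18 did not. Without aRG replicate 2 all 7 passed against aRG replicate 1, which itself held 974 CPM of choroid plexus and 401 of mesenchymal markers. The part of these cells in the cadherin differences was not tested.

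Cytoplasmic partners of cadherins also differed. In a list of 15 catenins and junction plaque genes 14 were tested. In N against aRG 4 rose (AFDN, CTNNA2, CTNND2 and JUP) and 1 fell (PKP2), with a list median of −0.33. Of all genes 4.87% rose and 4.80% fell in that comparison. The rises of AFDN (0.84, SE 0.24, adjusted p = 0.0450) and JUP (1.16, SE 0.30, adjusted p = 0.0290) were less stable. AFDN did not pass with no low-count filter, with only N and aRG fitted, or in 7 of 8 fits without 1 library (adjusted p = 0.0598 to 0.246). JUP did not pass with only N and aRG fitted (0.0792), without N replicate 1 (0.178) or without aRG replicate 1 (0.260). CTNNA2, the neural alpha-catenin, had 104 and 182 CPM in N, 36.1 and 41.0 in bIP, 9.42 and 32.3 in bRG, and 4.32 and 13.2 in aRG (4.03, SE 0.63, adjusted p = 0.00124 in N against aRG). CTNND2, delta-catenin, had 212 and 353 CPM in N, 106 and 98.1 in bIP, 83.3 and 96.7 in bRG, and 96.3 and 101 in aRG (1.52, SE 0.28, adjusted p = 0.00419). Neurons were the highest population for both. AFDN, the nectin linker afadin, was highest in bIP, with 739 and 574 CPM in N, 878 and 919 in bIP, 374 and 303 in bRG, and 388 and 344 in aRG (bIP against aRG 1.30, SE 0.24, adjusted p = 0.0122, but 0.0515 to 0.0822 when any 1 library of either was left out). JUP, or plakoglobin, was also highest in bIP, with 79.9 and 55.4 CPM in N, 95.7 and 106 in bIP, 39.4 and 32.3 in bRG, and 24.9 and 35.8 in aRG (bIP against aRG 1.74, SE 0.30, adjusted p = 0.00861, and 0.0782 without aRG replicate 1). PKP4, a plakophilin, fell in bIP against aRG (−1.32, SE 0.27, adjusted p = 0.0184), though not without either bIP library or aRG replicate 1 (0.0638, 0.184 and 0.0858). PKP2, another plakophilin, had 1.78 and 1.85 CPM in N, 8.26 and 7.74 in bIP, 8.87 and 8.15 in bRG, and 18.3 and 10.2 in aRG (N against aRG −2.97, SE 0.50, adjusted p = 0.00206). CTNNB1, beta-catenin, did not pass in any comparison and had 163 and 169 CPM in N, 195 and 227 in bIP, 171 and 208 in bRG, and 185 and 243 in aRG.

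Of 12 tested partners of the FAT, Dachsous and CELSR pathway, VANGL1 and ANKRD6 fell in N against aRG, where 4.80% of all genes did, and none rose, with a list median of −0.34. ANKRD6 (−1.76, SE 0.49, adjusted p = 0.0389) did not pass with only N and aRG fitted (0.0798), without N replicate 2 (0.238) or without either aRG library (0.114 and 0.0933). VANGL1, a core planar polarity protein, had 2.32 and 3.19 CPM in N, 6.52 and 4.12 in bIP, 14.0 and 14.0 in bRG, and 24.4 and 18.4 in aRG (−2.96, SE 0.46, adjusted p = 0.00122, edgeR). It stepped down in the same order as FAT1. Of 7 repressors of CDH1 transcription, 1 rose and 1 fell in N against aRG, where 4.87% of all genes rose and 4.80% fell. ZEB2 had 754 and 594 CPM in N, 267 and 239 in bIP, 74.7 and 121 in bRG, and 39.6 and 57.9 in aRG (3.79, SE 0.33, adjusted p = 2.36e-05). ZEB1 was lowest in neurons, with 24.9 and 11.9 CPM in N, 145 and 137 in bIP, 117 and 83.5 in bRG, and 114 and 88.9 in aRG (−2.46, SE 0.36, adjusted p = 0.000799). None of the 7 shedding enzymes passed in any comparison with edgeR or DESeq2, and in 42 tests with edgeR 0 had an unadjusted p under 0.05.

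The same libraries counted on the human genome gave a check of 54 cadherins, while PCDH11X, PCDH11Y and PCDH19 were compared on the chimpanzee genome only. All 48 differences that passed kept their sign and their call on the human genome. Counts over shared genes were 1.70 to 1.74 times as high on the chimpanzee as on the human genome, and CDH2 had 67120 counts against 40490, a ratio of 1.66. CELSR1 was the exception, with 8440 counts on the chimpanzee genome and 19597 on the human genome, a ratio of 0.431. No other cadherin was over 2-fold lower on the chimpanzee genome in all 8 libraries, with CPM scaled within each table, and 884 of 15060 shared genes were. CDH7 and CDH12 also had fewer counts on the chimpanzee genome (1085 against 1509, and 1233 against 1349). DCHS1 had the highest ratio at 2.30.

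CELSR1 on the human genome stood at 11.4 and 19.8 CPM in N, 99.8 and 80.1 in bIP, 291 and 272 in bRG, and 309 and 297 in aRG. The order of the populations was that of the chimpanzee table, but the fold change of N against aRG was −4.28 (adjusted p = 1.70e-05), against −5.76 on the chimpanzee genome. CDH7, a type II cadherin that did not pass on the chimpanzee genome (2.51, SE 0.85, adjusted p = 0.0951), passed in N against aRG on the human genome (2.87, adjusted p = 0.0195, edgeR), with 12.1 and 58.3 CPM in N and 3.77 and 5.79 in aRG. The 2 neuron libraries differed nearly 5-fold. In the same comparison on the human genome CDHR2 rose (2.35, adjusted p = 0.0329) and DSC3 fell (−3.29, adjusted p = 0.0272). Between bIP and aRG CDH24 and DCHS2 passed on the human genome as well (1.33 and 2.31, adjusted p = 0.0204 and 0.0388), as did CELSR3 and PCDH9 between bIP and bRG (1.71 and 1.67, adjusted p = 0.0389 each). Levels from the 2 tables were normalized separately.

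**Figure D5:**
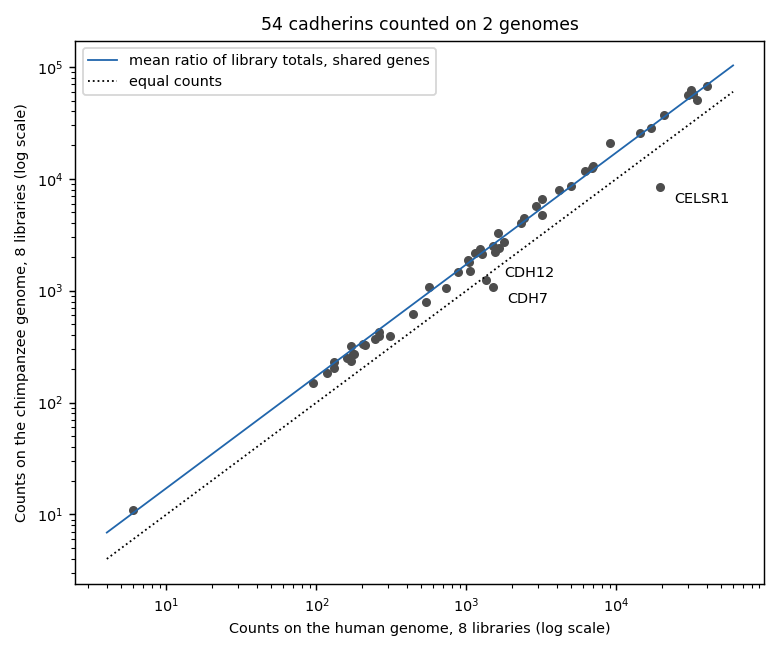
Counts summed over 8 libraries on the chimpanzee genome (vertical, log scale) against the human genome (horizontal, log scale) for 54 cadherins, 1 point a gene, with a solid line at the mean ratio of library totals over shared genes and a dotted line at equal counts. CELSR1, CDH7 and CDH12 lie below the line of equal counts, and the other genes lie along the solid line.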

How the data were processed

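Bulk RNA was sequenced from 8 libraries, 2 for each of 4 sorted populations. Per the labels' protocols, cDNA was made with a Smart-seq2 type workflow with 12 to 17 PCR cycles and cut with a transposome, which does not mark the strand, and no molecular identifiers are named, so limits set by counts cover counting error only. The deposited tables hold whole-number read counts per gene symbol, not normalized. The submitters' processing notes name STAR, panTro6 and hg38. No version, annotation, counter or strand setting is given in the sources used here. A row with no gene name (0.00545% to 0.00771% of counts) was left out. All columns were matched to a labelled sample.

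Genes were filtered with filterByExpr (35382 left), scaled by TMM and tested in edgeR 4.0.16 (R 4.3.3) by quasi-likelihood F tests, with 1 coefficient per population over 8 libraries (4 residual degrees of freedom, common biological coefficient of variation 0.629). Tests were two-sided, adjusted by Benjamini-Hochberg over all genes per comparison (6 in all). The threshold was 0.05. SE values come from the F statistic. DESeq2 1.42.0 was an alternative. The fit was also run on simulated counts with known changes, and the outcome is not given here. Levels are CPM per library, and means are given ± SD. Ratios between genomes used CPM plus 1, and 2-fold in 1 direction in all 8 libraries counted as a difference. Overlapping loci were read from RefSeq genes of another assembly (NHGRI_mPanTro3-v2.0), in which 56 of 57 symbols matched. Values in every library are given for cadherins past the threshold that reach a mean of 5 CPM and for those whose highest population mean reaches 20 CPM, 26 in all, and by range or mean for the others. Members, lists and this rule were chosen with earlier results of these data known. No sequences are shown, since none were used.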

Additional observations from a re-analysis of the deposited data

How the results depend on the processing

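No cadherin difference reversed under any alternative. Of the 48 differences that passed, all passed with DESeq2 size factors, no low-count filter, at least 5 CPM in 2 libraries, halved counts, robust estimation and the human genome table. With DESeq2 47 passed, and with only the 2 populations compared in the fit 38 did. DSG2 in N against aRG passed in neither. The fits of only the 2 populations also lost CDH6, CDHR3, FAT3, PCDH7 and PCDH17 in N against bRG. In N against bIP they lost CDHR3, DCHS2, FAT1 and PCDH17. The number of cadherins called moved by over 1.5 times in these cases. DESeq2 called 1 between bRG and aRG, 10 between bIP and aRG and 6 between bIP and bRG. With no low-count filter the counts were 1, 13 and 6 in the same order, 16 between N and bIP, and 23 for any difference. The human genome table gave 5 between bIP and bRG. Fits of only the 2 populations gave 8 between N and bRG and 6 between N and bIP. Leaving out 1 library at a time gave 0 to 1 between bRG and aRG (1 without bRG replicate 1), 4 to 9 between bIP and aRG, 14 to 19 between N and aRG, 0 to 6 between bIP and bRG (0 without bIP replicate 2), 10 to 15 between N and bRG, 5 to 12 between N and bIP (5 without bIP replicate 2) and 15 to 18 for any difference. A population left with 1 library is assumed to vary like the others. The cause of these moves was not tested. These counts, and those with the replicate block below, stand without the share of all genes under the same setting. They are therefore not read as a result about cadherins.

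The replicate block, a term for the replicate number, gave 0 cadherins between bRG and aRG, 10 between bIP and aRG, 23 between N and aRG, 5 between bIP and bRG, 16 between N and bRG, 14 between N and bIP and 23 for any difference, and all 48 differences still passed. Among cadherins with a highest population mean of at least 20 CPM, some passed among the 4 populations with the block but not without it. They were CDH4 (adjusted p = 0.0279), CDH13 (0.00741), DCHS1 (0.0164), DSG2 (0.0202), PCDH1 (0.0338) and PCDH18 (0.00492), all with edgeR. Deviations of same-numbered libraries correlated at 0.123 to 0.267 over 6 pairs of populations. With 2 numbers and no label that says they are shared, the libraries are not treated as paired. Of 228 mean levels 17 moved by over 1 SD on library totals, and 98 of 216 did on the human genome. The family shares on the human genome were added after the data were seen. Low counts limit members such as DSG2 in N, where 1 library held 0 counts.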
